A study of Mus musculus with 18 samples.

Results

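The transcripts of 3 colony-stimulating factors and 7 receptors of the same growth system were followed in mouse dendritic cells grown from bone marrow: the ligand genes Csf1, Csf2 and Csf3, the cytokine receptor chain genes Csf2ra, Csf2rb, Csf2rb2 and Csf3r, and the receptor tyrosine kinase genes Csf1r, Flt3 and Kit. All 10 genes, of 12394 on the array, were found through 17 of its 22690 probe sets, those annotated to 1 of the 10 genes alone. Where a gene had several, the one with the highest mean stands for it and the others served as a check.

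The series held 18 arrays in 3 sets: bone marrow-derived dendritic cells of Cd14-/- C57BL/6 mice given lipopolysaccharide (LPS, a bacterial cell wall component), those of C57BL/6 mice given LPS with the calcium chelator EGTA (2 mM), and those of C57BL/6 mice given LPS alone, the wild-type reference. Each set had 1 array without LPS and 1 array at each LPS time (2, 4, 6, 12 and 24 h), so no condition was measured again, and no label says that the arrays came from separate cultures or animals. The design compared the inhibited conditions with wild type to single out effects of calcium flux, and the title names NFAT, a calcium-dependent transcription factor. All mice were 6 to 8 weeks old, and all cells were grown in medium with 10% supernatant of GM-CSF-transduced B16 tumour cells, so every array, unstimulated ones included, came from cells already exposed to a product of Csf2. The labels give smooth LPS at 1 µg/ml for both C57BL/6 sets and no concentration for the Cd14-/- cells. The unstimulated array of the EGTA set has EGTA in the title alone, as its protocol speaks of no more than plating and harvest 24 h later, the harvest time of all 3 unstimulated arrays.

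Colony-stimulating factors are secreted proteins that keep myeloid cells alive and drive their growth and maturation: M-CSF (from Csf1) acts on monocytes and macrophages, GM-CSF (from Csf2) on granulocytes, macrophages and dendritic cells, and G-CSF (from Csf3) on neutrophils and their precursors. M-CSF binds the tyrosine kinase encoded by Csf1r, a relative of the stem cell factor receptor Kit and of Flt3, while GM-CSF binds a specific alpha chain (Csf2ra) paired with a shared beta chain (Csf2rb) that signals through JAK2 and STAT5. In mice a second beta chain, encoded by Csf2rb2, serves interleukin 3. LPS and other danger signals are known to switch on the ligand genes in many cell types.

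Levels are given as log2(quantile-normalised intensity + 16), so that differences are on that log2 scale and understate the fold change of dim genes, and a level of 1 gene is not set against that of another. Cd14 followed the labels, at 4.28 to 5.84 in Cd14-deficient cells, 12.49 to 13.03 with EGTA and 12.66 to 13.28 in wild type. The dendritic cell marker Itgax was above the array's median on 18 of 18 arrays (11.22 to 12.40). Of the 8 dendritic cell genes on the array 7 were above it on 2 or more arrays. Genes of other cell types were measured as well. Of the macrophage genes Adgre1, Mertk, Fcgr1, Apoe, C1qa, C1qb, C1qc, Cd68 and Mrc1 were above it on 18 arrays and Marco on 16. Of the granulocyte genes S100a8, S100a9, Ngp and Mmp8 were above it on 18 arrays, Camp on 15, Ltf and Prtn3 on 14, Elane on 13, Mmp9 on 12, Mpo on 6 and the receptor gene Cxcr2 on 0. Of the mast cell and basophil genes Cpa3 and Hdc were above it on 14 arrays, Mcpt8 on 12, Gata2 on 10 and Fcer1a, Ms4a2, Tpsb2 and Cma1 on 0. Of the 5 B16 melanoma genes on the array 0 were above it on 2 or more arrays. The RNA integrity number was 8.7 and 8.8 for the EGTA arrays at 24 and 12 h and 9.3 to 10 for the others, and the unstimulated EGTA array stood apart at its dim end, with a 1st percentile of intensity of 3.63 against at most 0.939 elsewhere. RNA came from whole cultures, so fewer cells of a type and less RNA per cell cannot be told apart.

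Promoter windows from the RefSeq table of build GRCm38.p6 are shown for 3 genes on which the results turn: Csf2, the ligand gene raised most at 2 h, Csf1, lower in Cd14-deficient cells, and Csf3r, higher with EGTA. Each window runs from 250 bases before to 50 after the annotated start, 5′ to 3′ along the gene, at chr3:107760420-107760719 (minus strand) for Csf1, chr11:54249850-54250149 (minus strand) for Csf2 and chr4:126024409-126024708 (plus strand) for Csf3r. Capitals mark matches, on either strand, to the core bound by NFAT factors (GGAAA, or TTTCC on the other strand) and to the NF-kB consensus of 10 bases.
Csf1: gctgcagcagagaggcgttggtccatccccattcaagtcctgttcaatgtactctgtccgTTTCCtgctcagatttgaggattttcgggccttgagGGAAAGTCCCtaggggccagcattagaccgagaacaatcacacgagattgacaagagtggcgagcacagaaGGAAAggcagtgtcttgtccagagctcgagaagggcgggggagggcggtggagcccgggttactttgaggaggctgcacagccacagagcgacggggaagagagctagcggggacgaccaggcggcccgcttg
Csf2: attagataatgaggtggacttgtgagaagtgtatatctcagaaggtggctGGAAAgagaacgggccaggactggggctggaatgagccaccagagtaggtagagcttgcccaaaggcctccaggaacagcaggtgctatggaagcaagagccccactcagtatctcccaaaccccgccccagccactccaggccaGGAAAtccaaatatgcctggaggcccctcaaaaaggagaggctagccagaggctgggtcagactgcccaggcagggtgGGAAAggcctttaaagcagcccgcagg
Csf3r: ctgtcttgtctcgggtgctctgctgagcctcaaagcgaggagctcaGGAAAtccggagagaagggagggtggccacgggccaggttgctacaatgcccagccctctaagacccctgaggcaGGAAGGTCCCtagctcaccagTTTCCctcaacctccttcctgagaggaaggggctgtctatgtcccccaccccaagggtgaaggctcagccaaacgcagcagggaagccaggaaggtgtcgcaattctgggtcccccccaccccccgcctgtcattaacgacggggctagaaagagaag
The NFAT core matched 3 times in the Csf2 window, at 200 and 55 bases before the start and past it, 3 times in that of Csf1 and 2 times in that of Csf3r, but 61.3% of the 32851 promoter windows of the table hold it. The NF-kB consensus matched once in Csf1, 154 bases before the start and overlapping one of the NFAT cores, and once in Csf3r, 129 bases before it. That consensus is held by 5.8% of all windows. The AP-1 motif TGANTCA, held by 7.8%, had no match in the 7 members searched (Csf1, Csf2, Csf2ra, Csf2rb2, Csf3r, Flt3 and Kit). Csf1r was left out of the search by choice, and Csf3 and Csf2rb had no window in the promoter table. Kit has 2 annotated starts, of which only the first-listed was searched. A match is a run of letters, not a measured binding site, and binding was not measured here.

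After LPS all 3 ligand genes were higher than in unstimulated cells, each with its own course. The GM-CSF gene Csf2 peaked at 2 h, and the M-CSF gene Csf1 rose at 2 h and no longer passed the test at 12 h. The G-CSF gene Csf3 stayed above the unstimulated arrays to the last time, though in Cd14-deficient cells it fell from 8.48 at 6 h to 6.56 at 24 h. Averaged over the 5 times, 6 of the 9 members tested passed the test, 4 higher and 2 lower, against 62% of all 7056 genes tested (27.3% higher and 34.7% lower), so the share of members was close to that of all genes. The median of the 9 members was 0.11 and that of all genes -0.05. The tenth member, Flt3, was above the array's median on 1 of 18 arrays and was not tested.

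Csf2 stood at 5.37 without LPS and 9.52, 8.06, 7.17, 6.64 and 5.90 after 2, 4, 6, 12 and 24 h in Cd14-deficient cells. With EGTA it stood at 6.05 without LPS and 8.43, 7.49, 7.22, 7.09 and 7.11, and in wild-type cells at 6.01 and 9.44, 8.13, 7.59, 7.57 and 7.41. In each set the 2 h array was the highest and the unstimulated array the lowest. The rise at 2 h was 3.32 ± 0.31 on the log2 scale (9.95-fold, adjusted p = 8.11e-07, higher in 3 of 3 sets; limma with Benjamini-Hochberg adjustment, as for every adjusted p here), and by 24 h it was 1.00 ± 0.31 (adjusted p = 0.0139). The 24 h call was lost without the unstimulated wild-type array (adjusted p = 0.0524), without the wild-type or EGTA 24 h array (0.0675 and 0.0831), without the unstimulated Cd14-deficient array (0.0569) and with no further scaling (0.0841).

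Csf3 was at 4.99 without LPS in Cd14-deficient cells and at 7.52, 8.12, 8.48, 7.77 and 6.56 after 2 to 24 h. With EGTA it was at 4.87 and then at 6.03, 6.32, 6.55, 6.53 and 6.72, and in wild type at 4.93 and then at 7.24, 8.21, 8.15, 8.00 and 8.85. All 15 LPS arrays lay above all 3 unstimulated ones. As deposited intensities these are 18.5, 23.9 and 13.9 without LPS in Cd14-deficient, EGTA and wild-type cells, close to the added 16. The mean rise over the 5 times was 2.47 ± 0.33 (5.55-fold, adjusted p = 1.04e-05), with 2.00 at 2 h and 2.80 at 6 h the smallest and largest of the 5.

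Csf1 was at 9.19 without LPS in Cd14-deficient cells and at 10.49, 9.83, 9.52, 9.25 and 9.13 after LPS. It was at 9.91 and then 11.04, 10.68, 10.23, 9.79 and 9.67 with EGTA, and at 9.88 and then 11.07, 10.71, 10.06, 10.08 and 9.49 in wild type. The 2 h array was the highest of its set in all 3. The rise was 1.21 ± 0.10 at 2 h (2.31-fold, adjusted p = 1.95e-07), 0.74 ± 0.10 at 4 h and 0.27 ± 0.10 at 6 h, while the 12 h difference (0.04, adjusted p = 0.734) and the 24 h difference (-0.23, adjusted p = 0.0655) did not pass. The 6 h call was lost with no further scaling (0.05, adjusted p = 0.811), under which the 24 h fall passed (-0.49, adjusted p = 0.0134). It was also lost without the Cd14-deficient or EGTA 6 h array (0.26 and 0.23) and without the unstimulated Cd14-deficient or wild-type array (0.25 and 0.27), and the 24 h difference passed as lower without the Cd14-deficient 24 h array (-0.31, adjusted p = 0.0277). The mean over the 5 times, 0.41 ± 0.08 (adjusted p = 0.000282), was 0.21 without the 2 h time (adjusted p = 0.0441) and failed the test with no further scaling of the arrays (0.21, adjusted p = 0.136) and on the 2 dimmest Csf1 probe sets (0.22 and 0.16).

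**Figure D1:**
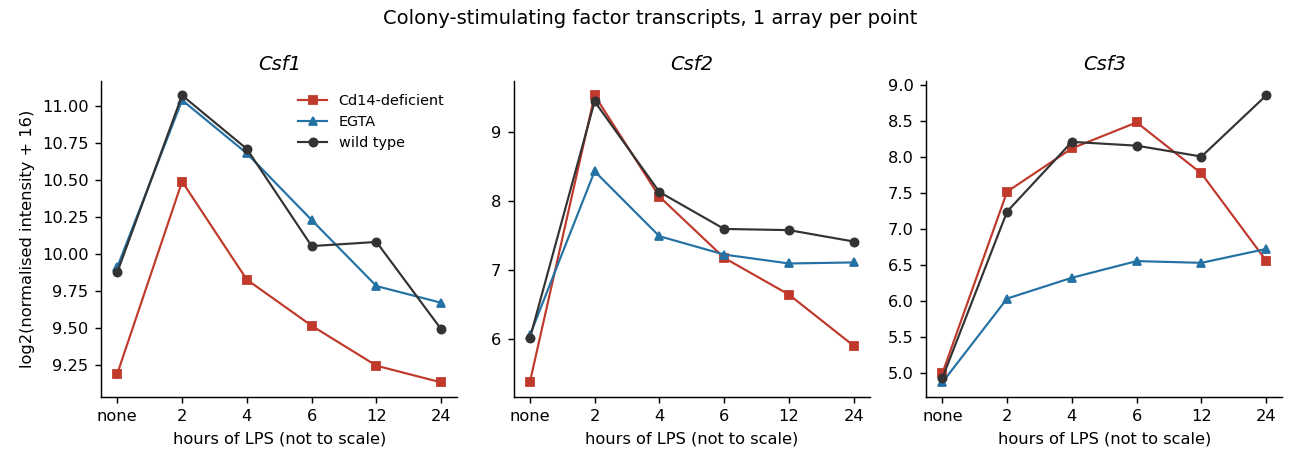
Levels of Csf1, Csf2 and Csf3, as log2(normalised intensity + 16), against hours of LPS in Cd14-deficient, EGTA and wild-type cells, 1 array per point. Csf2 peaks at 2 h in every set, Csf3 with EGTA stays between 6.03 and 6.72 under LPS, below the wild-type points at 7.24 to 8.85, and Csf1 in Cd14-deficient cells lies below wild type at every time.

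Among the receptors, averaged over the 5 times, the G-CSF receptor gene Csf3r was higher after LPS. The M-CSF receptor gene Csf1r and the GM-CSF alpha chain gene Csf2ra were lower, though the last 2 of these mean calls depended on the scaling. Csf3r was at 6.71 without LPS and at 6.65, 7.01, 7.44, 7.17 and 7.21 after 2 to 24 h in Cd14-deficient cells. With EGTA its level was 5.79 and then 7.04, 7.95, 8.39, 8.82 and 8.88, and in wild type 6.62 and then 6.75, 7.52, 7.95, 8.02 and 7.12. With EGTA every LPS array was above the unstimulated one, while in Cd14-deficient cells the 2 h array was not. The mean rise was 1.22 ± 0.29 (2.33-fold, adjusted p = 0.00186), but 0.62 without the unstimulated EGTA array, which stood apart (adjusted p = 0.0374), and 0.62 without the EGTA set (adjusted p = 0.0167). Without that array the rises at 6, 12 and 24 h were 0.95, 1.03 and 0.76, against 1.55, 1.63 and 1.36 with it. The 2 h difference did not pass (0.44, adjusted p = 0.371). The 4 h rise (1.11 ± 0.37, adjusted p = 0.0179) was lost without the unstimulated EGTA array (0.51, adjusted p = 0.137), without the EGTA set (0.59, adjusted p = 0.0577) and without the EGTA or wild-type 4 h array (adjusted p = 0.0502 and 0.0557). With no further scaling the 4 h call was lost too (0.59, adjusted p = 0.152), and the 2 h value was -0.03. The 24 h rise of 1.36 ± 0.37 (adjusted p = 0.00667) was lost without the EGTA set (0.50, adjusted p = 0.114) and without its 24 h array (0.93, adjusted p = 0.0523). All 10 tested granulocyte marker genes fell under LPS (median -0.91). The summed intensity of the 11 on the array ran under LPS from 16300 to 34600 in Cd14-deficient cells, 10700 to 37600 with EGTA and 8840 to 33500 in wild type. Without LPS the sums were 38000, 40900 and 40500 in the same order. The part of these markers in the course of Csf3r was not tested.

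Csf1r was lower after LPS, with the 4 h array the lowest of each set. It was at 12.99 and then 12.81, 12.24, 12.27, 12.76 and 12.79 in Cd14-deficient cells, at 13.29 and then 12.86, 12.61, 12.91, 13.11 and 13.15 with EGTA, and at 13.09 and then 12.86, 12.42, 12.44, 12.73 and 12.96 in wild type. In each set the unstimulated array was the highest. The difference was -0.70 ± 0.08 at 4 h (adjusted p = 3.37e-06) and -0.58 ± 0.08 at 6 h, and at 24 h it did not pass (-0.16, adjusted p = 0.123). Averaged over the times Csf1r fell by 0.39 ± 0.06 on the log2 scale (adjusted p = 7.03e-05), and its other probe sets by 0.69 ± 0.11 and 0.69 ± 0.08; both of these also passed at 24 h (-0.42 and -0.35). The 2 h call (-0.28, adjusted p = 0.0135) was lost without the EGTA 2 h array (adjusted p = 0.0999), and the 12 h call (-0.25, adjusted p = 0.0161) without the wild-type 12 h array (adjusted p = 0.09).

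Csf2ra fell by 0.31 ± 0.06 on average (adjusted p = 0.000277), within a whole range of 0.56 over the 18 arrays, and passed the test at each of the 5 times. Its dimmer second probe set did not pass on average (-0.06, adjusted p = 0.736), stood the other way at 2 and 4 h (0.14 and 0.21) and was lower at 24 h (-0.52, adjusted p = 0.0407). The choice of scaling also moved these small changes: the median LPS change of all genes was -0.05 after quantile normalisation, 0.09 after median centring and -0.32 with no further scaling, and the share of higher genes among all called was 44%, 61.7% and 19.9%. After median centring Csf1r (-0.08, adjusted p = 0.408) and Csf2ra (0.00, adjusted p = 0.981) no longer passed on average. The 4 h value of Csf1r was then -0.25 (adjusted p = 0.0443), its 6 h and 12 h calls were lost (-0.23 and -0.05, adjusted p = 0.0614 and 0.699), its 2 h value turned to 0.15 and those of Csf2ra at 2, 4 and 6 h to 0.11, 0.07 and 0.02. Set against the median of all genes, the mean change of Csf1r was -0.17 and that of Csf2ra -0.09 under either alternative scaling.

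The beta chain genes, Csf2rb for the shared chain and Csf2rb2 for that of interleukin 3, had narrow ranges. Csf2rb ran from 12.36 to 12.86 and Csf2rb2 from 12.26 to 12.83 over the 18 arrays, and neither passed the test on average (0.03 ± 0.05 and 0.11 ± 0.05). Csf2rb was lower at 4 h (-0.18, adjusted p = 0.0261) and higher at 12 and 24 h (0.16 and 0.22, adjusted p = 0.0375 and 0.00799), and Csf2rb2 was higher at 12 h (0.26, adjusted p = 0.00492). These calls depended on the scaling. With no further scaling all of them were lost (Csf2rb -0.19, 0.08 and 0.02 at 4, 12 and 24 h, and Csf2rb2 0.18 at 12 h), while after median centring the 4 h value of Csf2rb turned to 0.30 and both genes passed as higher on average (0.37 and 0.46). The Csf2rb call at 12 h was lost in 5 of 22 fits that left out an array or a time: the Cd14-deficient 12 h array (0.17), the wild-type 12 h array (0.11), the unstimulated Cd14-deficient (0.12) or wild-type array (0.18) and the 4 h time (0.16). Its 4 h call was lost in 4, without the EGTA or wild-type 4 h array (-0.18 and -0.14) and without the unstimulated EGTA or wild-type array (-0.15 and -0.16). The genes are close paralogs on chromosome 15, and 1 further probe set annotated to both was not used, so values of either may hold signal of the other.

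Kit, the stem cell factor receptor of progenitors and mast cells, was higher at 2 h and lower at 6 h than without LPS. Its level was 7.88 without LPS and 8.46, 7.53, 7.43, 7.70 and 8.31 after 2 to 24 h in Cd14-deficient cells. With EGTA it was at 8.42 and then 8.79, 8.42, 8.09, 8.11 and 8.75, and in wild type at 8.35 and then 8.78, 8.25, 7.79, 8.06 and 8.35. The 2 h array was the highest and the 6 h array the lowest of each set. The difference was 0.46 ± 0.12 at 2 h (adjusted p = 0.00568) and -0.45 ± 0.12 at 6 h (adjusted p = 0.00383), and the 2 h rise was lost with no further scaling (0.15, adjusted p = 0.462). Under that scaling Kit passed as lower at 4 h (-0.57, adjusted p = 0.0051) and 12 h (-0.5, adjusted p = 0.0163). It also did so on average (-0.37, adjusted p = 0.0158), where the median of all genes was -0.32. After quantile normalisation the mean did not pass (-0.03, adjusted p = 0.791). Neither the 2 h nor the 6 h difference passed on the dimmer second probe set (0.33 and -0.15), which was above the array's median on 5 arrays. The 24 h difference (0.25, adjusted p = 0.082) passed without the wild-type 24 h array (0.37, adjusted p = 0.0232). Flt3, the receptor that supports dendritic cell precursors, ran from 4.71 to 7.15, its level on 17 of 18 arrays not above the array's median, and its values rank no condition.

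**Figure D2:**
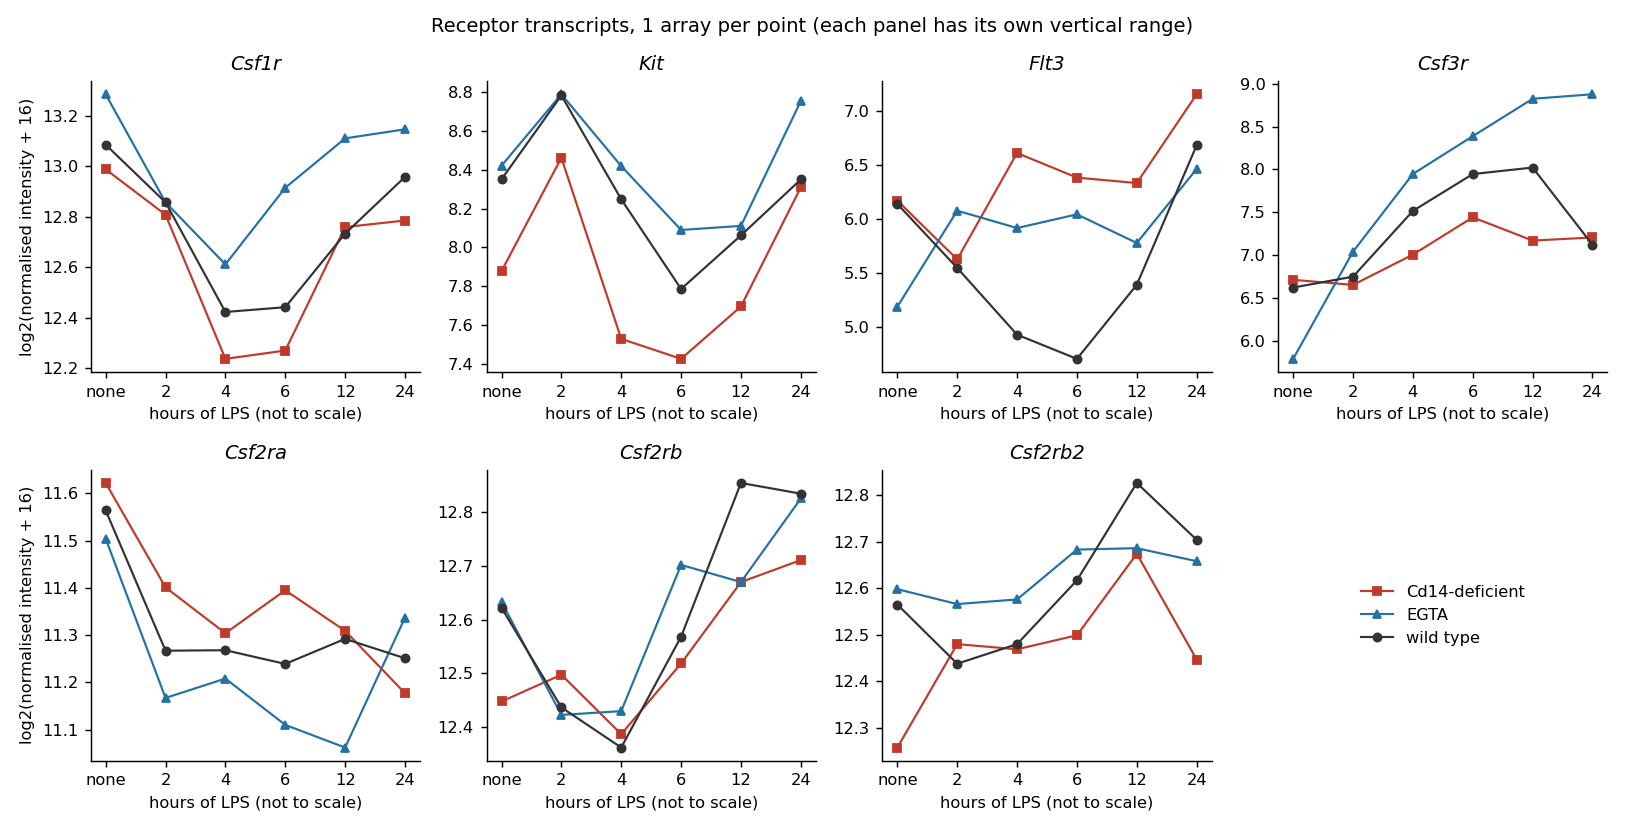
Levels of the 7 receptor genes, as log2(normalised intensity + 16), against hours of LPS in Cd14-deficient, EGTA and wild-type cells, 1 array per point and each panel on its own vertical range. Csf1r dips at 4 h in every set, Kit is highest at 2 h and lowest at 6 h, and Csf3r climbs with EGTA to 8.88 at 24 h.

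Single times were tested in the same way, with the 3 sets as replicates. At 2, 4, 6, 12 and 24 h the number of members that passed was 6, 7, 7, 7 and 5 of the 9 tested. Of these, 4 were higher and 2 lower at 2 h, while 4 h and 6 h had 4 higher and 3 lower each. The 12 h arrays had 5 higher and 2 lower, and the 24 h arrays 4 higher and 1 lower. Of all genes 41.3% passed at 2 h (16.4% higher, 25% lower), 60.8% at 4 h (25.6% higher, 35.2% lower) and 60% at 6 h (26.1% higher, 33.9% lower). At 12 h 56.6% passed (27.1% higher, 29.5% lower) and at 24 h 52.2% (26.4% higher, 25.7% lower). The unstimulated cells were harvested 24 h after plating, so at the earlier times LPS and time since plating cannot be told apart.

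With EGTA Csf3 was lower and Csf3r and Csf1r were higher than in wild type. Under LPS 3 of the 9 members tested passed the test between EGTA and wild type, 2 higher and 1 lower, against 13.6% of all 6929 genes (7.4% higher and 6.22% lower). Csf3, with the levels given above, was lower with EGTA at 5 of 5 times and the groups did not overlap, at 6.03 to 6.72 with EGTA against 7.24 to 8.85 in wild type. The difference was -1.66 ± 0.30 (3.16-fold lower, adjusted p = 0.00326), at rank 10 by size among all genes tested. It passed in 29 of 29 alternative settings, with values of -1.85 to -1.26. Without LPS the single arrays stood at 4.87 with EGTA and 4.93 in wild type.

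Csf3r was higher with EGTA at 5 of 5 times, by 0.29, 0.43, 0.44, 0.80 and 1.76 at 2 to 24 h. The ranges overlapped, at 7.04 to 8.88 with EGTA against 6.75 to 8.02 in wild type. The mean difference was 0.74 ± 0.19 (1.68-fold, adjusted p = 0.0229). The call was lost in 9 of 29 settings: without the wild-type 24 h array (0.56, adjusted p = 0.0555), the EGTA 12 h (0.67, 0.078) or 24 h array (0.55, 0.0527), or the times 4, 6, 12 or 24 h (0.82, 0.82, 0.73 and 0.49), without both late EGTA arrays (0.39, adjusted p = 0.194), which had the lowest RNA integrity, and without time as a block. Without LPS the order was the other way, at 5.79 with EGTA against 6.62 in wild type, on the EGTA array that stood apart. Of the granulocyte markers 1 of 10 tested was higher with EGTA (Mmp9, 0.44, lost in 15 of 20 fits that left out an array or a time) and 0 were lower.

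Csf1r was higher with EGTA at 4 of 5 times, at 12.61 to 13.15 against 12.42 to 12.96 in wild type, with a mean of 0.25 ± 0.07 (adjusted p = 0.0317). Its other probe sets gave 0.58 ± 0.10 (adjusted p = 0.00248) and 0.58 ± 0.08 (adjusted p = 0.000617). Without LPS the single arrays stood at 13.29 with EGTA, on the array that stood apart, and 13.09 in wild type. The test of a difference between the sets in the change with LPS gave 0.05 ± 0.16 (adjusted p = 0.941). On the other probe sets it gave 0.55 and 0.36 (adjusted p = 0.309 and 0.403). The call was lost in 17 of 31 settings, among them median centring (0.20, adjusted p = 0.07), no further scaling (0.27, adjusted p = 0.0551) and leaving out the wild-type 4, 6 or 12 h array or the EGTA 4, 6, 12 or 24 h array (0.18 to 0.26). Of the 10 macrophage markers tested 3 were higher with EGTA, Marco by 1.29, Mertk by 0.61 and Apoe by 0.20, the last lost in 16 of 20 fits that left out an array or a time. Their summed intensity under LPS was 23600 to 29900 with EGTA and 22900 to 28900 in wild type, and their part in the Csf1r difference was not tested.

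The other 6 tested members did not pass between EGTA and wild type. Csf2 was lower with EGTA at 5 of 5 times (-0.56 ± 0.24, adjusted p = 0.148), with -1.01 at 2 h where both were highest, at 8.43 with EGTA against 9.44 in wild type. Kit was higher at 5 of 5 times, by 0.01, 0.17, 0.30, 0.05 and 0.40 at 2 to 24 h (mean 0.19 ± 0.09, adjusted p = 0.212). Csf1 differed by 0.00 ± 0.08 (adjusted p = 0.993), but its dimmest probe set was lower with EGTA (-0.29 ± 0.07, adjusted p = 0.0167). Csf2ra (-0.09), Csf2rb (0.00) and Csf2rb2 (0.02) had standard errors of 0.05 to 0.06.

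**Figure D3:**
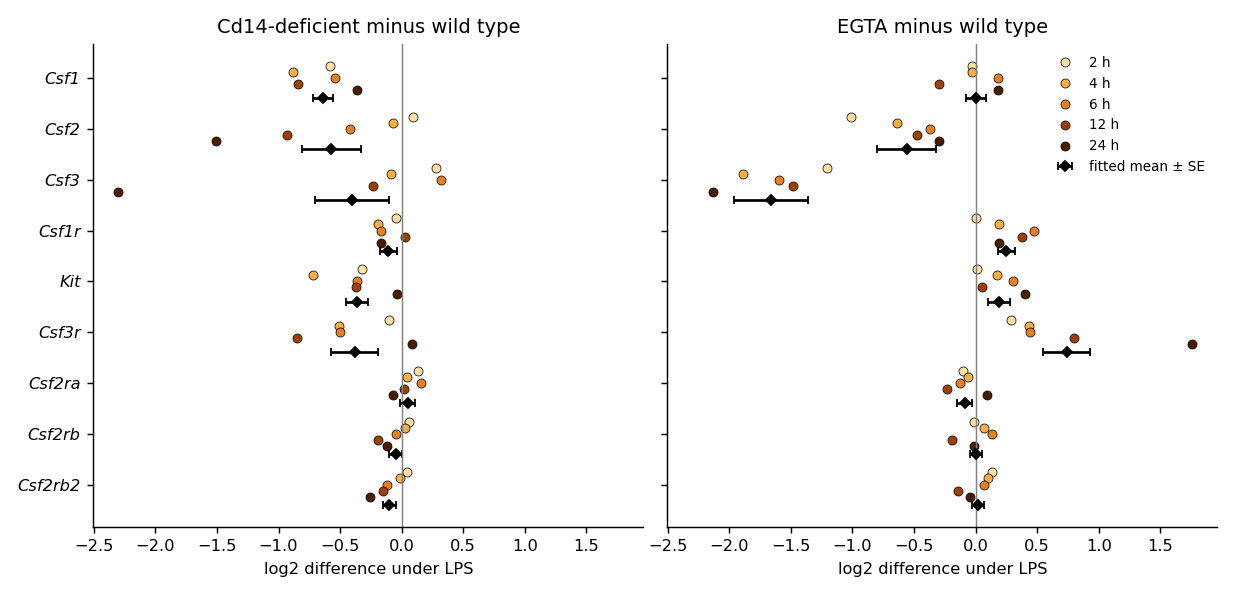
Differences of the 9 tested genes under LPS on the log2 scale, Cd14-deficient minus wild type on the left and EGTA minus wild type on the right, with 1 circle per LPS time and a diamond for the fitted mean with its standard error. The 5 Csf3 circles with EGTA lie between -2.13 and -1.21, and the 5 Csf1 circles in Cd14-deficient cells between -0.88 and -0.36.

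In Cd14-deficient cells Csf1 and Kit were lower than in wild type under LPS. These 2 of 9 tested members passed the test, both lower, against 29.7% of all 6929 genes, of which 12.6% were lower and 17.1% higher. With median centring or no further scaling the share of higher genes among all called was 43.5% or 22.1%, against 57.6% here. Both comparisons under LPS use the same wild-type arrays, so their values are given side by side and are not independent.

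Csf1 was lower at 5 of 5 times, with differences of -0.58, -0.88, -0.54, -0.84 and -0.36 at 2 to 24 h, although the ranges over times overlapped (9.13 to 10.49 in Cd14-deficient cells, 9.49 to 11.07 in wild type). The mean was -0.64 ± 0.08 (1.56-fold lower, adjusted p = 0.000115), against 0.00 ± 0.08 with EGTA. The other probe sets gave -0.69, -0.60 and -0.87, each past the test. Without LPS the single arrays stood at 9.19 in Cd14-deficient cells and 9.88 in wild type, and the test of a difference between the sets in the rise with LPS gave 0.05 ± 0.20 (adjusted p = 0.971). On the other probe sets that test gave -0.39 ± 0.20, -0.33 ± 0.20 and -0.47 ± 0.17, none past the threshold (adjusted p = 0.647, 0.703 and 0.473). Of 10 macrophage markers tested 7 were lower in Cd14-deficient cells (with Apoe at -1.64) and 1 higher (Marco, at 1.67), their summed intensity under LPS was 16300 to 25800 in Cd14-deficient cells against 22900 to 28900 in wild type, and their part in the Csf1 difference was not tested. Time had to be a block for the call: without it the adjusted p was 0.392.

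Kit was lower at 5 of 5 times, with differences of -0.04 at 24 h and -0.72 to -0.32 at the other times, with a mean of -0.36 ± 0.09 (adjusted p = 0.0113). The second probe set gave -0.64 ± 0.17 (adjusted p = 0.0121). Without LPS the single arrays stood at 7.88 in Cd14-deficient cells and 8.35 in wild type. The test of a difference between the sets in the change with LPS gave 0.11 ± 0.23 for Kit (adjusted p = 0.935). The call was lost without the 4 h arrays (-0.27, adjusted p = 0.0593) and without time as a block (adjusted p = 0.506). Of 8 mast cell and basophil markers on the array 4 were tested and 2 were lower in Cd14-deficient cells, Hdc at -0.95 and Cpa3 at -0.47. The summed intensity of all 8 under LPS was 575 to 1650 in Cd14-deficient cells and 920 to 2750 in wild type, and their part in the Kit difference was not tested. Hdc itself rose by 4.29 ± 0.20 with LPS. With EGTA 2 of the 4 tested markers were lower than in wild type (Mcpt8 at -0.68 and Cpa3 at -0.50) and 0 higher. The Kit mean with EGTA was 0.19, and -0.12 on its second probe set, neither past the test. Kitl, which encodes the ligand of Kit, was lower in Cd14-deficient cells as well (-1.30 ± 0.20, adjusted p = 0.00052).

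Csf2 and Csf3 had their lowest values relative to wild type at 24 h in Cd14-deficient cells. Csf2 differed by 0.09, -0.07, -0.42, -0.93 and -1.51 at 2, 4, 6, 12 and 24 h, and Csf3 by 0.28, -0.09, 0.32, -0.23 and -2.30. Their means did not pass (-0.57 ± 0.24, adjusted p = 0.0937, and -0.40 ± 0.30, adjusted p = 0.333). Csf2 passed without the Cd14-deficient 2 h array (-0.79, adjusted p = 0.0176) or the 2 h time (-0.73, adjusted p = 0.0312), and was at -0.30 without the Cd14-deficient 24 h array and -0.33 without the 24 h time (adjusted p = 0.261 and 0.231). The Csf3 mean was 0.01 without the Cd14-deficient 24 h array, -0.11 without the wild-type one and 0.07 without the 24 h time. The difference between early (2, 4 and 6 h) and late (12 and 24 h) effects was 1.09 ± 0.30 for Csf2 (limma, adjusted p = 0.157) and 1.43 ± 0.46 for Csf3 (adjusted p = 0.217), so neither passed. The Csf3 value ran from 0.40 without the 24 h time to 2.46 without the 12 h time (adjusted p = 0.844 and 0.00986). It was 0.57 without the Cd14-deficient 24 h array, 0.76 without the wild-type 24 h array and 2.30 without the Cd14-deficient 12 h array (adjusted p = 0.69, 0.73 and 0.0128).

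Csf3r in Cd14-deficient cells was lower than in wild type at 4 of 5 times (-0.38 ± 0.19, adjusted p = 0.159) and passed without the wild-type 24 h array (-0.56, adjusted p = 0.0298). Of 10 granulocyte markers tested 5 were higher in Cd14-deficient cells (Camp at 1.53) and 2 lower (Mmp8 at -0.56, Mmp9 at -0.70), and their part in the Csf3r values was not tested. Csf1r (-0.11 ± 0.07), Csf2ra (0.05 ± 0.06), Csf2rb (-0.05 ± 0.05) and Csf2rb2 (-0.10 ± 0.05) did not pass, though Csf2rb2 did with median centring (-0.15, adjusted p = 0.0449) or no further scaling (-0.22, adjusted p = 0.0234). Across the 4 tests of a changed effect, early against late and LPS against no LPS in each inhibited condition, 0 of the 9 members passed in limma. At an unadjusted p under 0.05 there were 2 members early against late in Cd14-deficient cells and 2 with EGTA, and 0 for LPS induction in Cd14-deficient cells and 2 with EGTA. Of all genes 0.0433% passed the adjusted test early against late in Cd14-deficient cells (0.0144% higher, 0.0289% lower) and 0% with EGTA. For LPS induction 0.156% passed in Cd14-deficient cells (0.0425% higher, 0.113% lower) and 1.66% with EGTA (0.879% higher, 0.779% lower). For induction with EGTA the values were 1.58 ± 0.47 for Csf3r (adjusted p = 0.121) and -1.60 ± 0.73 for Csf3 (adjusted p = 0.328), and the Csf3 value passed without the Cd14-deficient 24 h array (adjusted p = 0.0412). Early against late with EGTA, Csf3r was at -0.89 ± 0.28 (adjusted p = 0.236) and ran from -1.37 without the 12 h time to -0.41 without the 24 h time (adjusted p = 0.0556 and 0.899). It passed without the wild-type 12 h array (-1.36, adjusted p = 0.0293) and was at -0.42 without the wild-type 24 h array (adjusted p = 0.831).

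**Figure D4:**
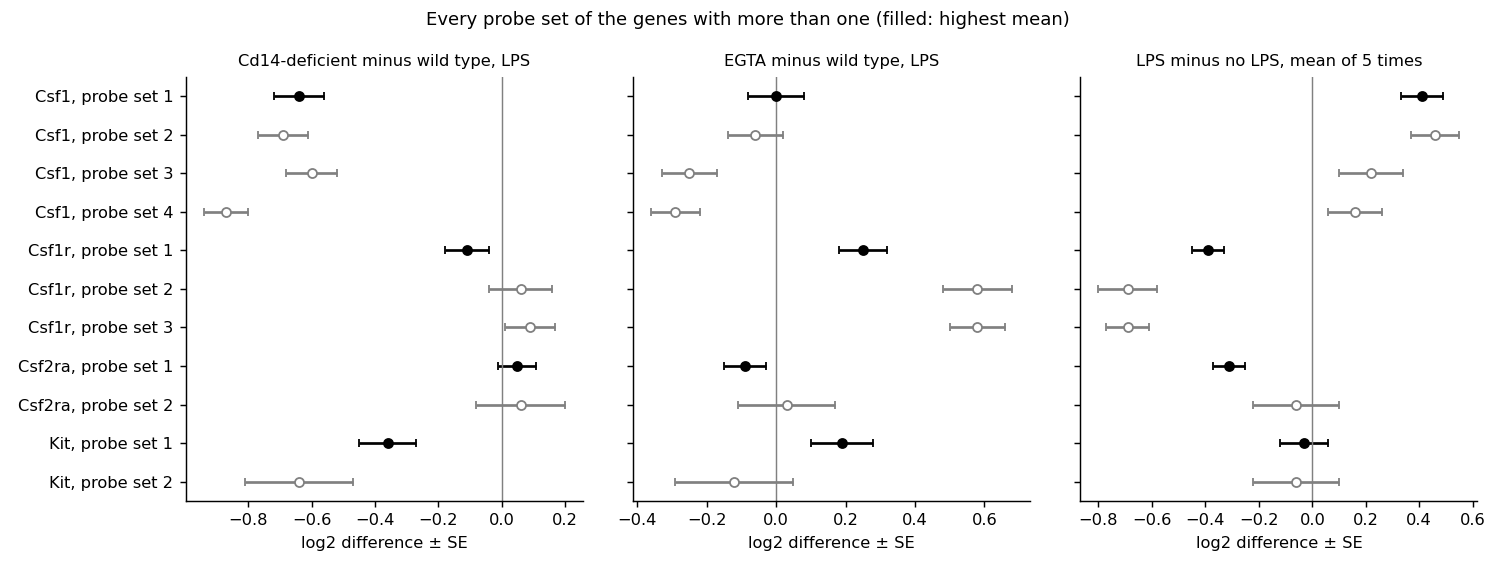
Log2 differences with standard errors for every probe set of Csf1, Csf1r, Csf2ra and Kit, for Cd14-deficient minus wild type under LPS, EGTA minus wild type under LPS and LPS minus no LPS (mean of 5 times), filled for the probe set with the highest mean. All 4 Csf1 probe sets lie between -0.87 and -0.60 in Cd14-deficient cells, and all 3 of Csf1r between 0.25 and 0.58 with EGTA.

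Genes that relay or restrain these receptors were grouped by role, and the counts are of genes that passed the test. With LPS, averaged over the 5 times, 62% of all 7056 genes tested passed (27.3% higher and 34.7% lower). Of the 7 tested genes of the JAK-STAT relay 6 rose and 1 fell with LPS, with a median of 0.69 against -0.05 over all genes: Stat5a, which carries the GM-CSF signal to the nucleus, by 2.44 ± 0.07, its sister Stat5b by 0.75 ± 0.06 and the kinase Jak2 by 0.69 ± 0.05. The 1 gene that fell, the kinase gene Fes (-0.90 ± 0.14), was named after its value was seen. Of 10 feedback and survival targets of STAT5, 6 rose and 1 fell, among them the inhibitors Socs3 (1.72 ± 0.08) and Socs1 (1.62 ± 0.13), while Myc fell by 1.68 ± 0.19. Of 14 adaptors and phosphatases of the tyrosine kinase receptors 5 rose and 4 fell, with Dok1 at 1.43 and Dok2 at -2.06. Of 17 transcription factors known to act on these ligand or receptor genes 4 rose and 8 fell, with Irf8 at 1.09 and Cebpa at -2.03. Of 9 genes of cytokine mRNA decay and receptor shedding 2 rose and 4 fell, and of 2 related ligand and receptor genes none passed.

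With EGTA, where 13.6% of all genes passed, the listed genes that passed were 1 higher and 0 lower of 7 in the JAK-STAT relay (Tyk2, 0.30), 1 and 1 of 10 STAT5 targets (Socs2, 0.24, and Cish, -0.28) and 3 and 0 of 13 adaptors (Inpp5d, 0.50, Dok2, 0.48, and Pik3cd, 0.44). Of 17 transcription factors 3 were higher and 0 lower: Spi1, whose product PU.1 drives Csf1r in myeloid cells, by 0.49 ± 0.07 (adjusted p = 0.00117), Egr1 by 0.59 and Irf8 by 0.25. Of 9 genes of mRNA decay and shedding 1 was higher and 1 lower: Adam17, a protease that sheds receptors, at 0.25, and Zfp36l2, of a family that destabilises AU-rich mRNAs, which fell by 1.00 ± 0.12 on the log2 scale (adjusted p = 0.000228). Of 20 fits that each left out an array or a time, the call was lost in 8 for Egr1, 7 for Irf8, 6 for Pik3cd, 5 each for Cish and Dok2 and 2 for Tyk2.

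In Cd14-deficient cells, where 29.7% of all genes passed, 0 were higher and 1 lower of 7 in the relay (Jak1, -0.15), 0 and 2 of 10 STAT5 targets (Socs1, -0.73 ± 0.09, and Socs3, -0.23), 2 and 0 of 13 adaptors (Inpp5d, 0.38, and Dok2, 0.34) and 3 and 0 of 17 transcription factors (Cebpa, 0.49, Cebpd, 0.48, and Ets2, 0.34). Of 9 genes of mRNA decay and shedding 3 were higher and 1 lower, Zfp36l1 by 0.73, Hnrnpd by 0.36 and Adam17 by 0.27, and the ribonuclease gene Zc3h12a at -0.48. Of 20 fits that each left out an array or a time, the call was lost in 15 for Dok2, 12 for Socs3, 10 for Jak1, 5 for Zc3h12a and 3 each for Cebpa and Ets2.

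The genes with the courses most like those of the members were sought over all tested genes. Over the 18 arrays, which share the time course, Csf2 was most like Tnfsf9 (Pearson r = 0.939), Osgin2 and Il23a (0.916 each), Csf3 most like Inhba (0.931), Cpd (0.913) and Lox (0.907), and Csf1 most like Ifnb1 (0.904), Plscr1 and Hivep2 (0.889 each). Among the receptors Csf3r was most like Pik3ap1 (0.936), Csf1r like Tm2d2 (0.937), Csf2ra like Cyp2s1 (0.902), Csf2rb like Sdhaf2 (0.901), Csf2rb2 like Ninj1 (0.875) and Kit like Smox (0.862).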

How the data were processed

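Transcripts were measured on 18 Affymetrix arrays. What the authors deposited is, for every probe set of an array, a linear intensity from MAS5, per the submitters' processing notes. The MAS5 version is not given in the sources used here. Between arrays, trimmed means ran from 330.52 to 472.30, so the deposited values were quantile-normalised and taken to log2 after adding 16. Of the probe sets, 20393 had 1 gene in the array's annotation. A gene was tested if 2 or more fitted arrays had it over their median (6929 genes over 15 LPS arrays, 7056 over 18).

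Tests used limma 3.58.1 in R 4.3.3 (lmFit, eBayes with an intensity trend) with Benjamini-Hochberg adjustment over all genes tested, at 0.05. Conditions were compared over the LPS arrays with time as a block (8 residual degrees of freedom), LPS over all arrays with the set as a block (10), and changes of effect as interactions (6 and 8). Times and sets thus served as replicates. The p-values cover the spread among these arrays alone, be it technical or not. Precision is limited by the number of arrays. The steps were tested on simulated data.

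Every member is named. Of each list the 4 tested genes with the smallest p per comparison may be named, and for each member the 3 genes with the highest correlation. The members and lists were chosen with earlier results of these data known. The one gene set as a check of the labels was Cd14. Alternatives were the scaling, the pseudocount, the filter, the trend, the block, other probe sets and arrays left out.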

Additional observations from a re-analysis of the deposited data

Results flagged for a closer look

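Kit stood on opposite sides of wild type in the inhibited conditions: under LPS it was below wild type at 5 of 5 times in Cd14-deficient cells (mean -0.36) and above wild type at 5 of 5 times with EGTA (mean 0.19, which did not pass the test). Some single differences were close to none, with 0.01 at 2 h and 0.05 at 12 h with EGTA and -0.04 at 24 h in Cd14-deficient cells. The difference between the mean effects of Cd14 deficiency and EGTA was not tested, and both use the same wild-type arrays. On the second Kit probe set the means were -0.64 and -0.12, so the opposite direction with EGTA did not hold there.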

How the results depend on the processing

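Of the members' values under the alternatives, 3135 kept their side of the threshold, 93 lost a call, 34 gained one and 8 reversed. A change of sign was counted as a reversal only where the main or the alternative value passed the test. Values that passed in neither fit could change sign among the 3135, as Csf3 in Cd14-deficient cells did (-0.40 to 0.07 without the 24 h time). Reversals came with median centring at 2 h (Csf1r 0.15, Csf2ra 0.11, Csf2rb 0.34), 4 h (Csf2ra 0.07, Csf2rb 0.30) and 6 h (Csf2ra 0.02) and with the second Csf2ra probe set at 2 and 4 h (0.14 and 0.21). Among listed genes Cpa3 under LPS reversed to -0.35 with no further scaling. Without time as a block, Cd14-deficient against wild type called 106 genes (2057 with it) and 0 members, and EGTA against wild type 51 (944 with it) and 1 member. No further scaling gave 1359 genes for Cd14-deficient cells. Without the EGTA arrays at 12 and 24 h, an alternative chosen after seeing the data, EGTA called 456 genes and 1 member. Early against late counts in Cd14-deficient cells were 10 with no further scaling, 5 and 14 with pseudocounts of 4 and 64, 0 with no filter and 1 with a stricter filter on low values. With EGTA they were 14 with no further scaling and 2 each with median centring, a pseudocount of 64 and the stricter filter. LPS induction counts in Cd14-deficient cells were 20 with no further scaling, 5 with no filter and 7 without the trend, and with EGTA 29 with no further scaling, 760 with median centring, 74 with a pseudocount of 64 and 71 with the stricter filter. With arrays or times left out, counts ran from 376 to 1075 for EGTA, 0 to 65 and 0 to 76 for early against late in Cd14-deficient and EGTA cells, and 3 to 40 and 29 to 177 for induction. Members called then ran from 1 to 3 for either condition, 0 to 1 for early against late in either and for induction with EGTA, and 3 to 6 for LPS at 24 h, where the 3 came without the EGTA 24 h array. The causes were not tested. The tests pair arrays by time or by set, as the blocks above. Dim genes near the added 16, such as unstimulated Csf3, limit fold changes.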
